A study of Rattus norvegicus with 129 samples.

Results

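The experiment described here set 5 male Sprague-Dawley rats given PCN against 5 male Sprague-Dawley rats given vehicle, with livers taken 24 h after 1 dose. Its members were picked by their labels, as rats 5006 to 5010 (PCN) and rats 1006 to 1010 (vehicle), and make up 10 of the 129 liver samples of the series. PCN (pregnenolone 16α-carbonitrile, a synthetic steroid) was given by oral gavage at 100 mg/kg, and the vehicle, which the PCN rats received too, was water holding methylcellulose at 0.5% and Tween 80 at 1%. The wider study behind them held 90 arrays of both sexes, in 18 groups of 5 rats given PCN at 100 mg/kg, phenobarbital at 100 mg/kg or vehicle. Its livers were collected at 6 h or 24 h from a single dose, or a day past the last dose of a course of 5 days. The rats used below for comparison are male rats given PCN for 6 h, male rats given PCN for 5 days and female rats given PCN for 24 h, each with 5 vehicle rats of the same sex and time, and male rats given phenobarbital for 24 h. The labels give each rat a number of its own and no age.

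PCN is the standard activator of the rat pregnane X receptor (PXR), a nuclear receptor that pairs with RXR, binds repeats of a short hexamer near its target genes and switches on enzymes that oxidise, conjugate and export foreign compounds. Its best known targets in rat liver are the Cyp3a monooxygenases and the uptake transporter Slco1a4. The related receptor CAR, which phenobarbital activates, drives Cyp2b genes and shares many targets with PXR. Activators of either receptor also enlarge the rat liver, and hepatocytes divide during that growth.

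Total liver RNA was read on a one-colour expression array with 8740 probe sets after control probe sets were left out. Levels are given as log2(intensity + 16) after quantile normalisation, so that the floor is 4.00, and every difference is a difference of group means on that scale, PCN minus vehicle. Such differences understate the change of dim genes, and levels are not compared between genes. Mean intensity before normalisation was 194 to 416 in the 5 PCN arrays and 202 to 319 in the 5 vehicle arrays. An array correlated with its group mates at r = 0.972 to 0.980 (PCN) and 0.975 to 0.981 (vehicle). The 16 measured hepatocyte markers summed to 99637 to 102798 intensity units in PCN rats and 100835 to 104574 in vehicle rats, which fits the label of liver. A probe set was called where the adjusted p of limma (Benjamini-Hochberg over all 8740) was under 0.05.

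The promoters of 4 genes described below are shown: Cyp3a23-3a1, which was higher after PCN, its near relative Cyp3a2, which was not called, and the mitotic genes Cdk1 and Ccnb1. The sequences run from 250 bases before to 50 bases after the gene start and come from RefSeq, build GRCr8, 5′ to 3′ on the gene's own strand. The first lies at chr12:14398754-14399053 (minus strand), the second at chr12:14343808-14344107 (minus strand), the third at chr20:19265043-19265342 (plus strand) and the last at chr2:33655176-33655475 (minus strand). Capitals mark letters found by a search of both strands: AGTTCA, any 3 bases and AGTTCA again (the repeat called DR3, which PXR with RXR is known to bind) in the Cyp3a promoters, and CCAAT (the box bound by NF-Y) and TTTGAA (the cell cycle homology region) in the mitotic ones. Each motif may be read from either strand, so the capitals can show its reverse complement.
Cyp3a23-3a1: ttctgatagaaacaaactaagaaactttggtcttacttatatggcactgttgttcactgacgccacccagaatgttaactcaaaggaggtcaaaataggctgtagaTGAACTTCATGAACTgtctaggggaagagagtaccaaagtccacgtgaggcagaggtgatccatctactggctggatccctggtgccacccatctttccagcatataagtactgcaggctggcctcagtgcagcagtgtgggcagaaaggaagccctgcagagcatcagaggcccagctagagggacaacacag
Cyp3a2: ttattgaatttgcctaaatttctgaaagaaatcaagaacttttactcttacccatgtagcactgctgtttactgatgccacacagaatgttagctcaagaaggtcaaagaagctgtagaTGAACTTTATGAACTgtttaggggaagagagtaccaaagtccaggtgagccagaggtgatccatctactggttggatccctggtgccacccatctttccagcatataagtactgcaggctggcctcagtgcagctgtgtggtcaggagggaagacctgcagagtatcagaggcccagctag
Cdk1: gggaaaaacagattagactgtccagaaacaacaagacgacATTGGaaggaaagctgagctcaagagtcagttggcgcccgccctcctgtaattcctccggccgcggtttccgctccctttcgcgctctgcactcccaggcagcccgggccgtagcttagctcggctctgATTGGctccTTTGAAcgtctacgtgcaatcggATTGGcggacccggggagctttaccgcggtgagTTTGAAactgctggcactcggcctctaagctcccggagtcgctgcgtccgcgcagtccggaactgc
Ccnb1: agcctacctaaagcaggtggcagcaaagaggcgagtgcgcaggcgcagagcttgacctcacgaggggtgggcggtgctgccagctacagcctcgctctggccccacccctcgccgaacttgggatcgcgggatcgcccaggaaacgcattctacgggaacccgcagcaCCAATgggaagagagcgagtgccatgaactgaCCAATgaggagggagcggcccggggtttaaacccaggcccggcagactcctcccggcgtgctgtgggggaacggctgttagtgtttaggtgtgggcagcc

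That repeat stood in both Cyp3a promoters, and these were the only 2 of 33469 promoters to hold it (0.00598%). Any of 4 DR3 forms, with AGTTCA or AGGTCA in either place, occurred in 14 promoters (0.0418%). The Cyp3a23-3a1 and Cyp3a2 promoters were identical at 254 of 285 aligned bases (89.1%), with 30 gap positions. Of the 30 genes that a called probe set names, 25 had a promoter in the table, and 1 of these held a DR3. The Cdk1 promoter held 3 CCAAT boxes and 2 TTTGAA, and the Ccnb1 promoter 2 CCAAT boxes. At least 1 CCAAT occurred in 37.5% of all promoters, at least 2 in 11.2% and at least 3 in 3.02%, while TTTGAA occurred in 18.3%. Of the 8 called genes of the cell cycle list with Pttg1 and Foxm1, 7 had a promoter, 6 held 2 or more CCAAT, 4 held 3 or more and 4 held TTTGAA. The other called genes with 2 or more CCAAT were Hmmr (4), Tat (3, lower in PCN rats), Gnmt (2, also lower), Aldh1a1 (2) and P4hb (2). All these matches are descriptions of the letters in a 300-base window, and their bearing on the levels was not tested.

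One day after a single dose, the livers of PCN rats had higher levels of the PXR targets Cyp3a23-3a1, Cyp3a18 and Slco1a4, of Cyp2b2, of shared Ugt1a and Ces2 probe sets, and of a set of mitotic genes, and lower levels of genes of amino acid breakdown and the urea cycle. Of 8740 probe sets 50 were called (0.572%), 41 higher in PCN rats (0.469%) and 9 lower (0.103%). At an unadjusted p under 0.05 there were 683. With each gene read from its brightest probe set, 23 of 4736 genes were called (0.486%), 17 higher (0.359%) and 6 lower (0.127%). Of the 50 called probe sets 36 carry 1 gene symbol, for 30 genes, 11 carry several symbols and 3 carry none. The 5 PCN values lay wholly outside the 5 vehicle values in 33 of the 50, whereas all PCN rats lay above all vehicle rats in 1.03% of the 8740 probe sets and below them in 0.515%. In such bulk samples, fewer cells of a type and less RNA per cell cannot be told apart.

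The calls lean on the spread estimated from all 89 arrays of the fit. When the 10 arrays were fitted alone, 8 probe sets were called, all higher: 3 of Cyp3a23-3a1, 1 each of Slco1a4 and Cyp3a18, the shared Ces2 probe set, 1 of the Ugt1a probe sets, and rc_AA866435_at, which no symbol names here. With arrays scaled by their medians in place of quantile normalisation, 50 were again called and 94.0% of them were higher, against 82% with quantile normalisation. The array of vehicle 6 h rat 1003 belongs to neither group compared here and was left out of the main fit. In 42.9% of windows of 50 probe sets its values matched its group better 1 place down. With this array kept in the fit 37 were called, and adjusted p was 0.582 for Aldh1a1, 0.604 for H2az1, 0.223 for Egr1 (AF023087_s_at), 0.136 for Sds and 1.00 for Cps1, which are described below.

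Among the oxidation genes under PXR and CAR, 5 of 18 measured were called higher and none lower, against 0.359% of all genes higher, and the list median was 0.21, against 0.00 over all genes. Cyp3a23-3a1 (X64401cds_s_at), the main PCN-induced Cyp3a of rat liver, read 12.38, 12.79, 12.62, 12.58 and 12.66 in PCN rats 5006 to 5010, against 11.33 at most in vehicle rats, whose values were 10.79, 11.33, 11.14, 11.20 and 11.18 in rats 1006 to 1010. Rat values follow in this order throughout. All PCN rats lay above all vehicle rats, and the difference was 1.48 (SE 0.17, adjusted p = 1.54e-09, limma). Its other probe sets L24207_i_at and D13912_s_at differed by 1.76 and 1.21, with adjusted p of 7.61e-12 and 3.21e-10, and L24207_r_at by 1.04 with an adjusted p of 0.0688. This is the gene whose promoter was printed first above.

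Cyp3a18 (D38381_s_at), a further Cyp3a enzyme, read 11.31, 10.99, 11.16, 11.12 and 11.25 in PCN rats, against 9.89, 10.02, 9.85, 10.05 and 9.65 in vehicle rats. The groups did not overlap, and the difference was 1.27 (SE 0.29, adjusted p = 0.00801, limma). Cyp3a2 (M13646_s_at), the male-biased Cyp3a, read 11.76, 11.69, 11.57, 11.44 and 11.59 in PCN rats, against 11.73, 11.52, 11.47, 11.90 and 11.53 in vehicle rats. The Cyp3a2 groups overlapped throughout, with a difference of -0.02 and a 95% confidence interval of -0.69 to 0.65, and its sign turned with median scaling. Of this pair with nearly the same promoter letters Cyp3a23-3a1 was called and Cyp3a2 was not; the difference between the genes was not tested. A probe set shared by both, X62086mRNA_s_at, differed by 0.82 (adjusted p = 0.284), with all 5 PCN rats above the vehicle rats.

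Cyp2b2 (K01721mRNA_s_at), the phenobarbital-inducible oxidase, read 11.45, 10.59, 10.63, 10.51 and 10.02 in PCN rats, against 8.81, 8.88, 8.55, 8.96 and 9.50 in vehicle rats. Rat 5006 was the highest and rat 5010 the lowest of the PCN rats, and all of them exceeded every vehicle rat (difference 1.70, SE 0.29, adjusted p = 0.000116, limma). A second Cyp2b2 probe set, J00728cds_f_at, differed by 1.06 (adjusted p = 0.000253), and its call was lost when the array of vehicle 6 h rat 1003 was kept in the fit (adjusted p = 0.434). Of 4 probe sets shared among Cyp2b genes 3 were called higher, against 0.469% of all probe sets, and the 4 differed by 0.83 to 1.56. With rat 1003 kept M13234cds_f_at (adjusted p = 0.636) and L00320cds_f_at (0.304) lost their calls.

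Por (E01524cds_s_at), the reductase that passes electrons to all microsomal cytochromes P450, read 8.09, 8.88, 8.29, 8.98 and 9.51 in PCN rats, against 7.31, 7.47, 8.16, 7.14 and 8.36 in vehicle rats. The Por groups overlapped, with rat 5006 below vehicle rats 1008 and 1010, and the difference was 1.06 (SE 0.26, adjusted p = 0.0197, limma). Aldh1a1 (AF001898_at), an aldehyde dehydrogenase induced by phenobarbital, read 10.06, 9.74, 9.65, 9.97 and 9.80 in PCN rats, against 8.66, 9.29, 8.14, 9.57 and 8.78 in vehicle rats, without overlap (difference 0.96, SE 0.25, adjusted p = 0.0416). Both calls were fragile. The Por call was lost without any 1 of rats 1006, 1007, 1009, 5007, 5009 and 5010 (adjusted p 0.0559 to 0.137), and the Aldh1a1 call without any 1 of 8 rats, all but 1007 and 1009 (0.0545 to 0.253). The list count was then 3 without rat 1006, 5007, 5009 or 5010.

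Alas1 (J03190_g_at), which makes the first committed step of haem synthesis for cytochromes P450, read 8.79, 8.62, 8.20, 9.02 and 9.53 in PCN rats, against 8.51, 8.43, 8.72, 8.69 and 8.90 in vehicle rats. The groups overlapped, and the difference was 0.18 with a 95% interval of -0.33 to 0.69. Akr7a3 (AF045464_s_at), an aldo-keto reductase, differed by 0.99 without overlap, but its adjusted p was 0.11. Cyp3a9 (U46118_at) differed by 0.53 (adjusted p = 0.956).

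**Figure D1:**
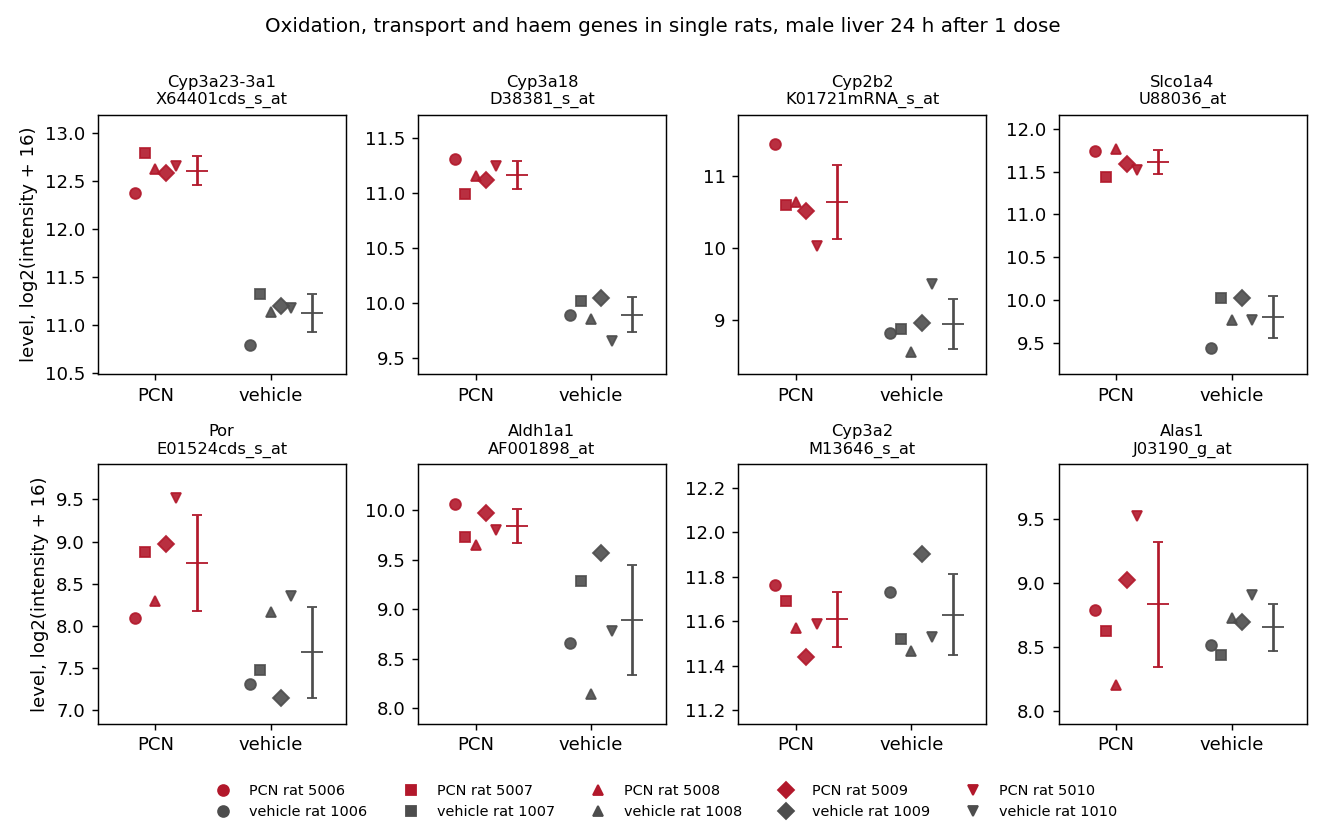
Levels of 8 oxidation, transport and haem genes in log2(intensity + 16), with PCN rats left and vehicle rats right in each panel; a point is 1 rat, and the bar beside the points is the group mean ± SD (n = 5 each). For Cyp3a23-3a1, Cyp3a18, Cyp2b2, Slco1a4 and Aldh1a1 the PCN rats lie above all vehicle rats, and for Por, Cyp3a2 and Alas1 the groups overlap.

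Slco1a4 (U88036_at), the hepatic uptake carrier for organic anions and cardiac glycosides, read 11.74, 11.44, 11.76, 11.59 and 11.52 in PCN rats, against 9.43, 10.02, 9.76, 10.02 and 9.77 in vehicle rats. Its groups lay far apart (difference 1.81, SE 0.21, adjusted p = 2.68e-09, limma), and the call held without each rat in turn and in the fit of the 10 arrays alone (adjusted p = 0.000339). It was 1 of 13 measured transporters to be called higher, against 0.359% of all genes. The other 12 were not, among them the canalicular pump Abcc2 (0.12, adjusted p = 1.00), the basolateral pump Abcc3 (-0.26, adjusted p = 0.982) and Slco2b1, with the most negative difference of the list (-1.33, adjusted p = 0.741).

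Among the 20 conjugation genes with a probe set of their own none was called. At an unadjusted p under 0.05 7 were higher and 2 lower, where 213 of all 4736 genes were higher and 189 lower. Ugt1a5 (1.09, adjusted p = 0.065) and the glucuronosyltransferase Ugt2b1 (0.75, adjusted p = 0.0665) came nearest among the higher ones. Ugt2b1 (M13506_at) read 10.25, 10.19, 9.90, 9.59 and 10.34 in PCN rats, against 8.62, 9.46, 9.18, 9.21 and 10.04 in vehicle rats, so that vehicle rat 1010 reached into the PCN range. Without rat 5009 the list had 2 called members, without rat 1007 or 1010 it had 1, and with median scaling 2.

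The Ugt1a genes share their last exons, and 12 probe sets carry several Ugt1a symbols, so they are described for the family. Of these 12 probe sets 5 were called higher, against 0.469% of all probe sets, and the 12 differed by -0.64 to 2.07. D38065exon_s_at read 10.35, 10.32, 10.43, 8.76 and 10.24 in PCN rats, against 7.23, 8.47, 8.05, 7.62 and 8.41 in vehicle rats (difference 2.07, SE 0.36, adjusted p = 0.000147, limma). J05132_s_at, the tightest of the 5, read 12.04, 11.96, 11.95, 11.90 and 11.95 in PCN rats, against 11.005 to 11.14 in vehicle rats (difference 0.86, SE 0.08, adjusted p = 1.6e-12), and lost its call when rat 1003 was kept in the fit (adjusted p = 0.551). So did D83796_s_at (0.635) and J02612mRNA_s_at (0.166), and the last was also lost without any 1 of 6 rats (1006, 1007, 1009, 5006, 5008 and 5010). Rat 5009 was the lowest PCN rat in all 5 of these probe sets.

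The largest called rise of the experiment was on AB010635_s_at, which carries the symbols of 2 carboxylesterases of the Ces2 family, enzymes that split ester drugs. It read 8.07, 8.12, 8.30, 7.39 and 7.94 in PCN rats, against 4.97, 5.81, 4.41, 5.40 and 5.57 in vehicle rats. The groups lay more than 1 unit apart, and the difference was 2.73 (SE 0.39, adjusted p = 1.34e-06, limma). The unnamed probe set rc_AA866435_at read 8.72, 8.92, 8.70, 8.36 and 9.02 in PCN rats, against 6.02, 6.17, 5.88, 6.37 and 6.42 in vehicle rats (difference 2.57, adjusted p = 1.6e-12). It held its call without each rat in turn and in every other alternative tried.

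Of 14 genes under the stress factor NRF2 only Tkt, transketolase of the pentose phosphate path, was called, against 0.359% of all genes higher. The list median was 0.38, the highest of the 28 lists, with 11 differences above 0 and 3 below it. At an unadjusted p under 0.05 (limma) 8 members were higher and none lower, where 213 of all 4736 genes were higher and 189 lower. Tkt (U09256_at) read 10.02, 9.25, 9.67, 9.54 and 9.86 in PCN rats, against 8.83, 9.02, 9.28, 8.84 and 8.56 in vehicle rats. PCN rat 5007 lay just under vehicle rat 1008, and the difference was 0.76 (SE 0.17, adjusted p = 0.0089, limma). The count of called members was 0 without rat 1010 or 5006, 2 without rat 1009 or 5008, and 3 with median scaling.

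Genes of cell division formed the other rising group. By their brightest probe sets 4 of 41 measured genes of the cell cycle list were called higher (Cdk1, Top2a, Stmn1 and H2az1) and none lower, against 0.359% of all genes higher and 0.127% lower, and with any probe set of a gene 6 (also Ccnb1 and Mcm6). The list median was 0.18, with 30 differences above 0 and 11 below it, and 14 members were higher and 2 lower at an unadjusted p under 0.05, where 213 of all 4736 genes were higher and 189 lower. The called genes Pttg1 and Foxm1, which have mitotic roles, are outside the list, as is the spindle-associated Hmmr.

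Cdk1 (X60767mRNA_s_at), the kinase that drives entry into mitosis, read 6.85, 6.15, 5.85, 4.92 and 5.48 in PCN rats, against 4.13, 4.54, 4.14, 4.52 and 4.00 in vehicle rats. All vehicle rats lay near the floor and all PCN rats above them (difference 1.59, SE 0.25, adjusted p = 2.54e-05, limma). Ccnb1 (rc_AA998164_s_at), the cyclin B1 that activates Cdk1, read 6.58, 6.19, 5.60, 4.90 and 6.02 in PCN rats, against 4.54, 4.43, 4.00, 4.68 and 4.00 in vehicle rats. It too was without overlap (difference 1.53, adjusted p = 0.000116), whereas the brighter Ccnb1 probe set X64589_at overlapped (1.00, adjusted p = 0.868). The Cdk1 and Ccnb1 promoters printed above both hold repeated CCAAT boxes.

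Top2a (rc_AA899854_at), the topoisomerase that untangles chromosomes, read 8.00, 6.52, 6.38, 4.97 and 6.43 in PCN rats, against 4.39, 4.68, 4.62, 4.93 and 4.97 in vehicle rats. Rat 5009 sat at the vehicle level, and the difference was 1.74 (SE 0.36, adjusted p = 0.00238, limma). Pttg1 (U73030_at), the securin that restrains the separation of sister chromatids, read 7.49, 6.22, 6.37, 4.73 and 6.58 in PCN rats, against 4.00, 4.03, 4.00, 4.00 and 4.68 in vehicle rats (difference 2.14, SE 0.46, adjusted p = 0.00448). Without rat 5006 both calls were lost, with adjusted p of 0.0587 for Top2a and 0.0567 for Pttg1, and with a pseudocount of 1 Top2a was at 0.0704.

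Stmn1 (rc_AI231821_at), which destabilises microtubules, read 8.38, 7.33, 7.19, 6.81 and 7.30 in PCN rats, against 6.08, 6.16, 5.95, 6.47 and 6.12 in vehicle rats. Its groups did not overlap, and it kept its call without each rat in turn (difference 1.25, SE 0.24, adjusted p = 0.000728, limma). Mcm6, a subunit of the replicative helicase, gave a mixed picture. U17565_at read 6.80, 6.06, 5.91, 5.71 and 6.79 in PCN rats, against 4.00 in each vehicle rat but 1009, which read 4.99 (difference 2.06, adjusted p = 2.99e-05). The related U17565_g_at differed by 1.84 (adjusted p = 0.00709, lost without rat 5006 or 5010), while the brightest Mcm6 probe set, rc_AI639082_s_at, differed by -0.10 (adjusted p = 1.00).

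H2az1 (M37584_at), a histone H2A variant, read 9.91, 9.09, 9.30, 9.16 and 9.48 in PCN rats, against 8.58, 8.71, 8.74, 8.95 and 8.82 in vehicle rats (difference 0.63, adjusted p = 0.011, lost without rat 1006 or 5006, at up to 0.121). Foxm1 (U83112_at), a transcription factor of mitotic genes, read 7.68, 7.22, 7.38, 7.11 and 7.22 in PCN rats, against 6.82, 6.87, 7.19, 6.85 and 4.27 in vehicle rats. Its difference of 0.92 (adjusted p = 0.0224) fell to 0.39 without vehicle rat 1010 (adjusted p = 0.325), and its call was also lost without rat 5006 or 5008. Hmmr (U87983_at) left the floor in 2 PCN rats alone, 5006 at 4.30 and 5010 at 4.52, and was called at a difference of 0.17 (adjusted p = 0.00591, lost without either of them). Of 3 probe sets shared by Hmgb2 and its copies 2 were called higher, against 0.469% of all probe sets. They differed by 1.12 (lost without rat 5006) and 0.93 (lost without any 1 of 8 rats).

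The PCN rats differed among themselves in these genes. In the 9 called probe sets of the cell cycle list with Pttg1 and Foxm1, rat 5006 was the highest of the 5 PCN rats in 9 and rat 5009 the lowest in 8. Their mean level was 7.65 in rat 5006, 6.69 in rat 5007, 6.57 in rat 5008, 5.91 in rat 5009 and 6.88 in rat 5010. Mean array intensity before normalisation had the same order over the 5 rats, at 416 in rat 5006, 242 in rat 5007, 226 in rat 5008, 194 in rat 5009 and 291 in rat 5010, and its part in these levels was not tested. Over all 41 called higher probe sets rat 5006 was highest in 23 and rat 5009 lowest in 19. The list count fell to 2 without rat 5006, was 7 without rat 5009, and was 0 in the fit of the 10 arrays alone. Members of the list that were not called include Cdc20 (0.78, adjusted p = 0.0931), Ccnd1 (0.57, adjusted p = 0.471), Pcna (0.14, adjusted p = 0.988) and Myc (-0.54, adjusted p = 0.508), named after their values were seen.

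**Figure D2:**
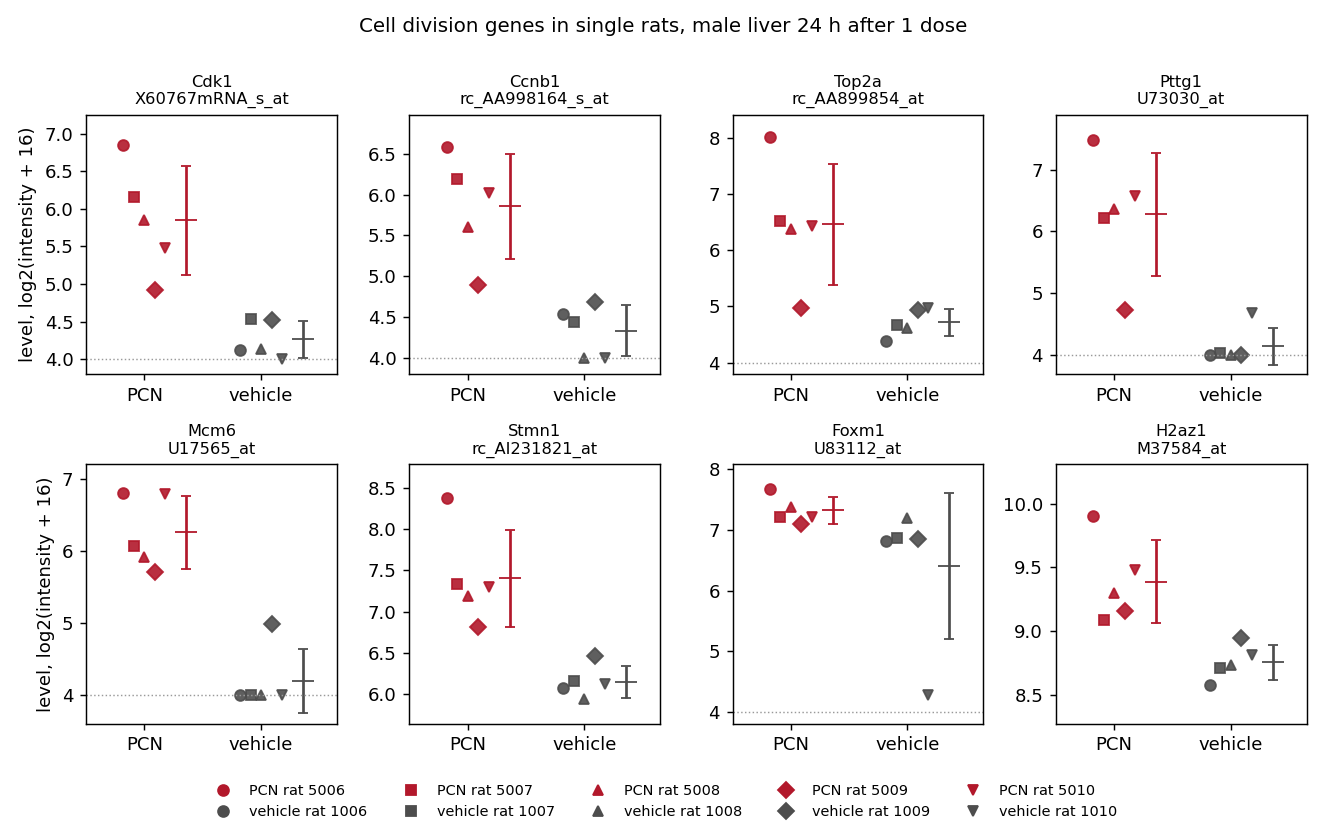
Levels of 8 cell division genes in log2(intensity + 16), PCN rats left and vehicle rats right, 1 point per rat with the group mean ± SD (n = 5 each) and a dotted line at the floor of 4.00. Rat 5006 (circle) is the highest PCN rat in every panel and rat 5009 (diamond) the lowest in most, and for Foxm1 vehicle rat 1010 lies far below the other vehicle rats.

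Genes of amino acid breakdown and the urea cycle made up most of the lower calls. Of 35 measured members 5 were lower (Tat, Gnmt, Ass1, Cps1 and Sds) and none higher, against 0.127% of all genes lower. The list median was -0.23, and 27 members had negative and 8 positive differences. Tat (X02741_s_at), the enzyme that opens tyrosine breakdown, read 9.47, 9.35, 10.00, 9.56 and 8.98 in PCN rats, against 10.85, 10.01, 10.60, 10.45 and 10.88 in vehicle rats. The groups did not overlap, though PCN rat 5008 came within 0.1 of vehicle rat 1007, and the difference was -1.09 (SE 0.19, adjusted p = 0.000138, limma). Tat kept its call without each rat in turn and with median scaling (adjusted p = 0.00215).

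Gnmt (rc_AA893219_at), which uses S-adenosylmethionine to methylate glycine, read 9.65, 10.35, 10.15, 10.26 and 9.99 in PCN rats, against 11.16, 11.03, 11.09, 10.56 and 11.11 in vehicle rats, without overlap (difference -0.91, SE 0.23, adjusted p = 0.0287, limma). Ass1 (X12459_at), which joins citrulline and aspartate in the urea cycle, read 10.57, 11.23, 11.15, 11.43 and 11.17 in PCN rats, against 11.90, 11.68, 11.77, 11.52 and 11.90 in vehicle rats (difference -0.64, adjusted p = 0.00618). Cps1 (M12335expandedCDS_s_at), the entry step of the cycle, differed by -0.27 (SE 0.06, adjusted p = 0.00591), with PCN rats at 11.79 to 11.96 and vehicle rats at 12.01 to 12.28. Each of the 3 was lower in all PCN rats than in all vehicle rats.

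Sds (J03863_at), serine dehydratase, had the widest spread among PCN rats of the 50 called probe sets. It read 4.00, 4.85, 6.80, 10.90 and 8.75 in PCN rats, against 10.90, 10.66, 11.83, 9.03 and 11.38 in vehicle rats. Rat 5009 lay within the vehicle range and rat 5006 at the floor (difference -3.70, SE 0.97, adjusted p = 0.0487, limma). The call was lost without any 1 of 7 rats, 1006, 1007, 1008, 1010, 5006, 5007 and 5008 (adjusted p 0.0808 to 0.245), and with a pseudocount of 1 (0.192).

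How many of these genes were called varied with the arrays and the scaling. The count was 3 without rat 1006, 1007, 1008, 1010 or 5008, 2 without rat 5006 and 6 without rat 5009. With median scaling only Tat stayed called, Cps1 had an adjusted p of 0.992, Ass1 of 0.289 and Gnmt of 0.212, and in the fit of the 10 arrays alone no member was called. Gnmt lost its call without any 1 of 7 rats (all but 1009, 5007 and 5009, adjusted p 0.0545 to 0.128), and Ass1 without rat 5006 (adjusted p = 0.0887).

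**Figure D3:**
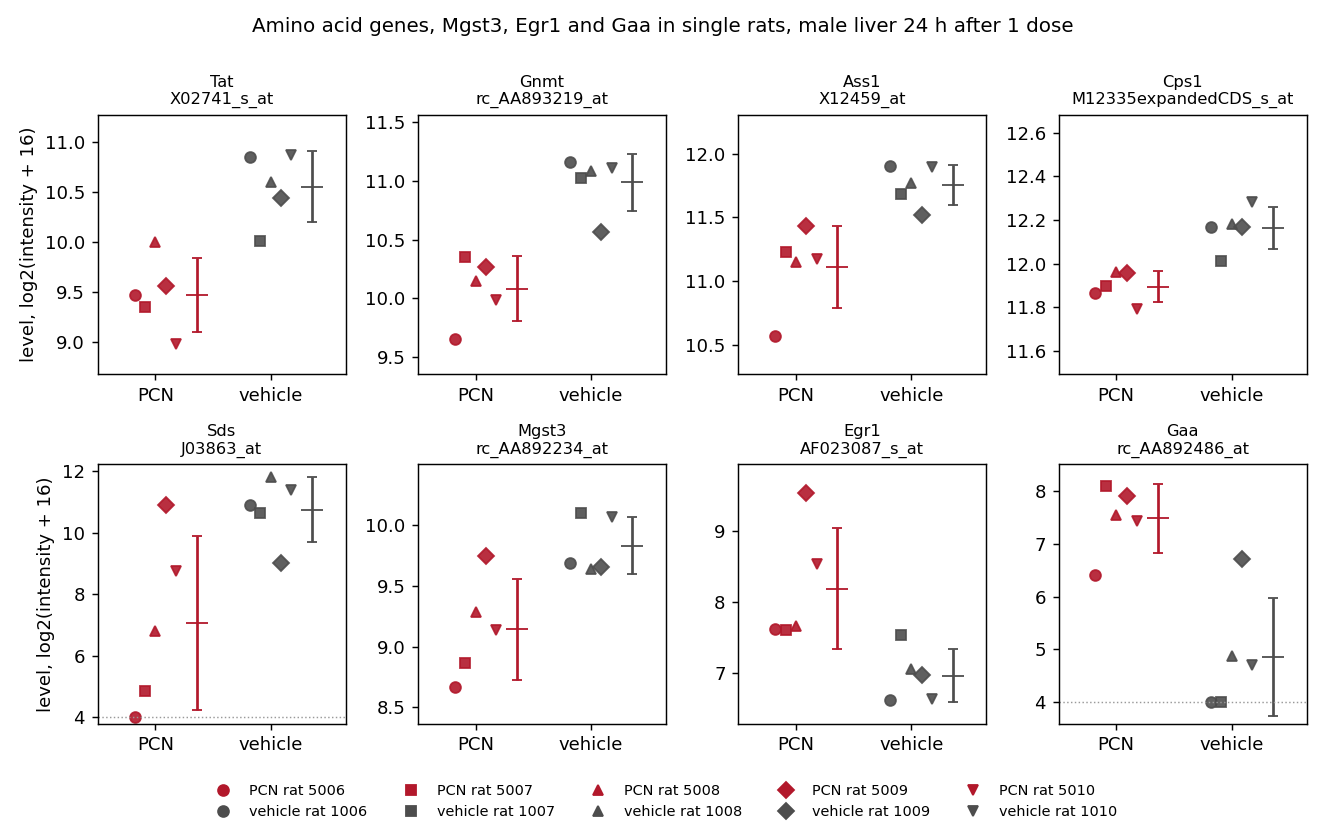
Levels of 5 amino acid and urea cycle genes with Mgst3, Egr1 and Gaa in log2(intensity + 16), PCN rats left and vehicle rats right, 1 point per rat with the group mean ± SD (n = 5 each). PCN rats lie below all vehicle rats for Tat, Gnmt, Ass1 and Cps1, and the Sds values of PCN rats run from the floor of 4.00 in rat 5006 to 10.90 in rat 5009.

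The remaining called genes belong to no common list. Sfmbt1 (rc_AA893965_at), a chromatin protein, read 6.58, 6.76, 6.88, 6.90 and 6.60 in PCN rats, against 5.21, 5.25, 5.17, 5.67 and 6.35 in vehicle rats, without overlap (difference 1.22, SE 0.21, adjusted p = 0.000116, limma). Gaa (rc_AA892486_at), the lysosomal acid α-glucosidase, read 6.42, 8.11, 7.56, 7.91 and 7.44 in PCN rats, against 4.00, 4.00, 4.87, 6.72 and 4.70 in vehicle rats (difference 2.63, adjusted p = 0.0165, lost without rat 1006, 1007 or 5007). Egr1 (AF023087_s_at), an immediate-early transcription factor, read 7.62, 7.60, 7.66, 9.54 and 8.54 in PCN rats, against 6.62, 7.54, 7.06, 6.97 and 6.64 in vehicle rats. Rat 5009, low in the mitotic genes, was the highest in Egr1. The Egr1 difference was 1.23 (adjusted p = 0.0217), lost without rat 1006, 1010, 5009 or 5010, and of its 3 other probe sets M18416_at was called (1.35, adjusted p = 0.02) and the other two were not (0.12 and -0.15).

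Mgst3 (rc_AA892234_at), a microsomal glutathione transferase, read 8.67, 8.86, 9.29, 9.75 and 9.14 in PCN rats, against 9.69, 10.10, 9.64, 9.65 and 10.07 in vehicle rats. Rat 5009 lay among the vehicle rats, and the difference was -0.69 (adjusted p = 0.0225, limma), lost without rat 1007, 1010, 5006, 5007 or 5010 and with median scaling (adjusted p = 0.161). Called by a probe set that is not their brightest were the acetyltransferase Nat1 (U01344_g_at, -0.58) and the glutamate carrier Slc1a3 (S59158_at, -1.35) among the lower genes, and the nucleoporin Nup58 (AF000900_at, 1.04), the lysyl oxidase relative Loxl1 (rc_AA859805_at, 0.49) and the protein disulfide isomerase P4hb (X02918_g_at, 0.34) among the higher ones. None of these 5 genes was called by its brightest probe set, at -0.26, 0.07, -0.11, 0.19 and 0.12 in the same order. Loxl1 lost its call without rat 5008 or 5010, Nup58 without any 1 of 6 rats (1007, 1008, 1009, 5006, 5008 and 5009) and P4hb without any 1 of 6 rats (1006, 1007, 1010, 5006, 5008 and 5009) and with median scaling (adjusted p = 0.0871). With a pseudocount of 1 adjusted p was 0.203 for Slc1a3, 0.167 for Nup58 and 0.0517 for Loxl1.

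Of the 28 gene lists 22 had no called member by the brightest probe set in limma. Over all 4736 genes the median was 0, and 213 were higher and 189 lower at an unadjusted p under 0.05 (limma). The counts of the lists that follow are to be read against these. The proteasome list had 23 of 26 members above 0, 7 of them at an unadjusted p under 0.05, with a median of 0.13. The lipogenesis list had 9 of 14 members below 0 and a median of -0.25, and its largest difference, in the ATP citrate lyase Acly (-1.06, adjusted p = 0.225), was without overlap. At an unadjusted p under 0.05 the lists of PPARα targets and fatty acid oxidation (31 genes) held 3 higher and 1 lower, glucose metabolism (26 genes) 3 lower, acute phase, complement and coagulation (42 genes) 2 higher and 1 lower, endoplasmic reticulum (21 genes) 1 higher and 2 lower, and bile acid synthesis (12 genes) 1 higher and 1 lower. The last list includes Cyp7a1, the rate-limiting enzyme of bile acid synthesis, at -1.14 (95% interval -2.49 to 0.21).

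In the nuclear receptor list (31 genes) 1 was lower at that threshold, as was 1 in the growth hormone and IGF list (14 genes), and 1 was higher in the thyroid list (9 genes) and in that of male-biased liver genes (15 genes). The lists of female-biased liver genes (12), cholesterol synthesis (14), heat shock (16) and the clock (11) had none. Among the clock genes Dbp (J03179_g_at) had the largest difference (1.09), with a wide spread in both groups. It read 4.00, 5.47, 5.70, 10.58 and 9.61 in PCN rats, against 5.85, 4.00, 6.82, 4.00 and 9.23 in vehicle rats. The male-specific Cyp2c11 differed by 0.36 on X79081mRNA_f_at (95% interval -0.11 to 0.84), and its other probe sets showed no such rise. J02657_s_at read 11.72 to 11.99 in PCN rats and 11.87 to 12.12 in vehicle rats. M18363cds_s_at read 11.33 to 11.81 in PCN rats and 11.54 to 11.71 in vehicle rats.

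**Figure D4:**
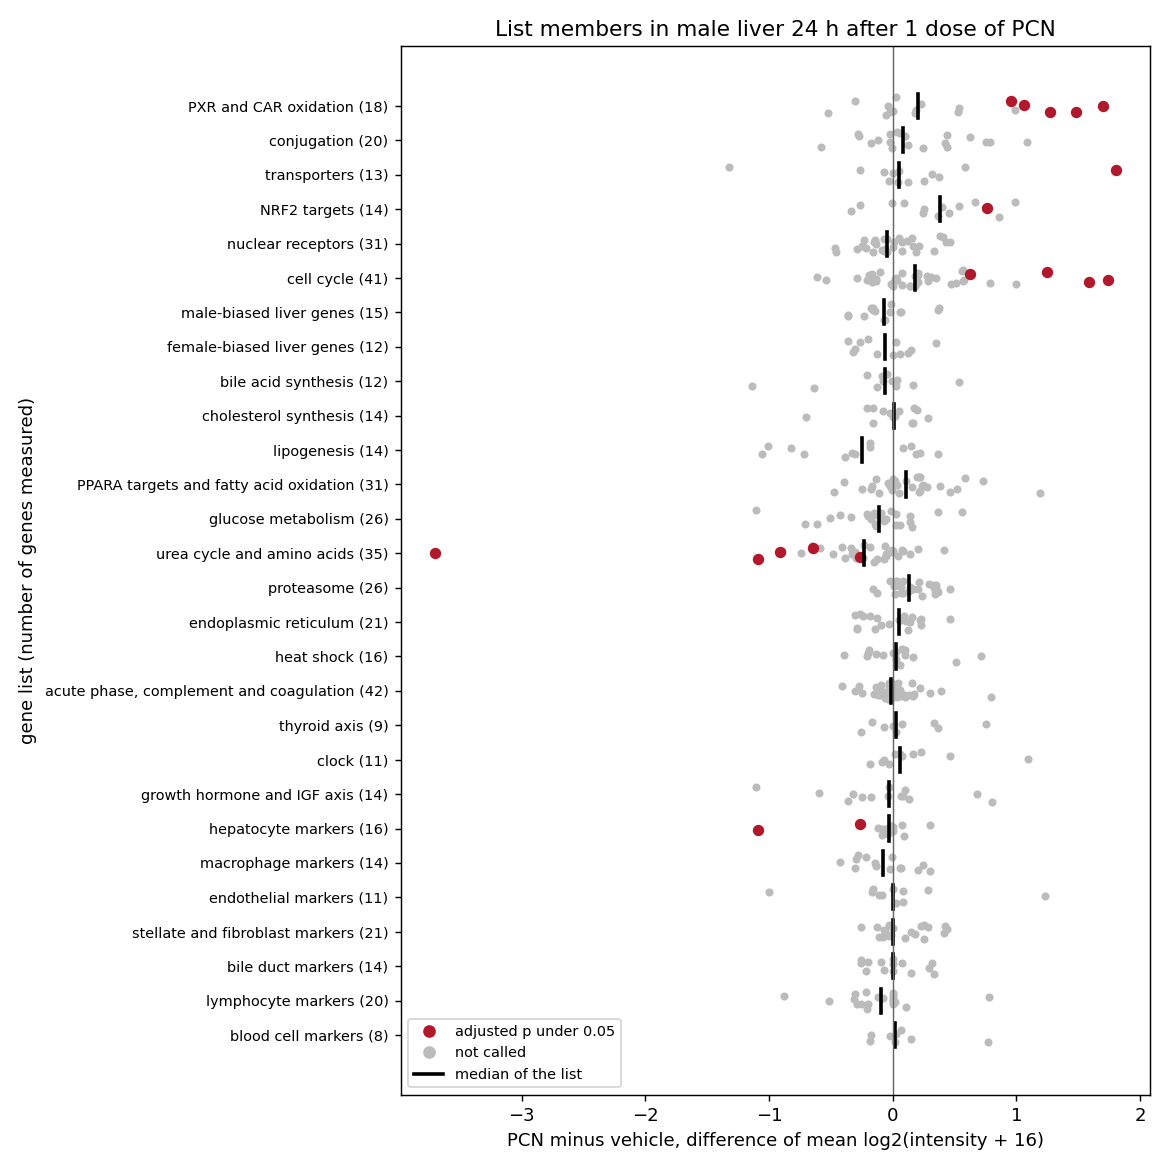
Difference of mean log2(intensity + 16), PCN minus vehicle, for every measured member of 28 gene lists, 1 point per gene read from its brightest probe set; red points were called, grey points were not, and the black bar is the list median. The called members sit in the lists of oxidation, transport, NRF2 and the cell cycle on the right of 0 and of amino acids and hepatocyte markers on the left.

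Markers of other liver cells had no called member. Summed intensity was 2356 to 4108 in PCN rats and 2509 to 4482 in vehicle rats over 14 macrophage markers, 639 to 897 in PCN rats and 581 to 924 in vehicle rats over 11 endothelial markers, and 7017 to 10115 in PCN rats and 7841 to 9288 in vehicle rats over 21 stellate and fibroblast markers (Des at 0 in all 10 rats). Over 14 bile duct markers (Ggt1 at 0) it was 1871 to 2554 in PCN rats and 1880 to 2316 in vehicle rats, and over 20 lymphocyte markers (Cd3d, Cd2, Prf1 and Ncam1 at 0) 1860 to 3566 in PCN rats and 1976 to 3050 in vehicle rats. Over 8 blood cell markers it was 7711 to 10200 in PCN rats and 6150 to 10974 in vehicle rats. The ranges overlapped in each list. At an unadjusted p under 0.05 there were none in the macrophage and bile duct lists, 1 higher and 1 lower in the endothelial, 1 higher in the stellate, 2 lower in the lymphocyte and 1 higher in the blood list. Of the 16 hepatocyte markers Cps1 and Tat were called lower, against 0.127% of all genes, and both are also members of the amino acid list.

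The effect at 24 h was then set against the effect of PCN in other rats, each against the vehicle rats of its own time and sex. Against 6 h after 1 dose, 27 probe sets differed (0.309%), 7 with a higher (0.0801%) and 20 with a lower effect at 24 h (0.229%), and 596 at an unadjusted p under 0.05. By brightest probe set 18 genes differed (0.38%), 4 with a higher (0.0845%) and 14 with a lower effect (0.296%). The Cyp3a23-3a1 effect was 1.48 at 24 h and 1.30 at 6 h, a difference of 0.18 (SE 0.25, adjusted p = 1.00), and that of Slco1a4 1.81 at 24 h and 1.20 at 6 h (difference 0.61, adjusted p = 0.733). Alas1 departed from them: its effect was 0.18 at 24 h and 1.91 at 6 h (difference -1.73, SE 0.37, adjusted p = 0.0164, lost without rat 1005 or 5008). Egr1 (AF023087_s_at) went the other way, at 1.23 at 24 h and -0.79 at 6 h (difference 2.02, adjusted p = 0.0164, lost without rat 1005 and, at 0.345, with rat 1003 of the same vehicle group kept).

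The mitotic genes were not alike at 6 h. Pttg1 differed by -0.23 and Top2a by 0.20 there (adjusted p = 1.00 for both), while Mcm6 was already higher by 1.55 on U17565_at (adjusted p = 0.00648) and 2.04 on U17565_g_at (adjusted p = 0.0027). The brightest Mcm6 probe set, rc_AI639082_s_at, stood at 6.99 ± 0.47 in PCN rats and 6.88 ± 0.29 in vehicle rats at 6 h (SD). After 5 days U17565_at was higher too (1.58, adjusted p = 0.000688, limma), but U17565_g_at was not called (0.19, adjusted p = 0.977). Cdk1 differed by 1.59 at 24 h and -0.01 at 6 h (difference of effects 1.60, SE 0.37, adjusted p = 0.0346), Ccnb1 (rc_AA998164_s_at) by 1.55 more at 24 h (adjusted p = 0.0479), and Stmn1 by 1.36 more (adjusted p = 0.0604). The Cdk1 call was lost in 11 and the Ccnb1 call in 15 of 19 fits that each left out 1 rat, with adjusted p of up to 0.0889 and 0.137, and both with a pseudocount of 1 (0.201 for Cdk1 and 0.189 for Ccnb1). Ass1 was lower at 24 h by 0.64 and not at 6 h, where its effect was 0.19 (difference -0.83, adjusted p = 0.0479, lost in 14 of 19 such fits and, at 0.577, with median scaling). The count of 27 was 5 without vehicle 6 h rat 1005, 10 without 1004, 12 without vehicle rat 1006 or 1008, 14 without 1010, 12 without PCN 6 h rat 5003, 16 without 5001, 6 without PCN rat 5008 and 17 without 5007, and 0 with only the groups compared in the fit.

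Against 5 daily doses 18 probe sets differed (0.206%), 8 with a higher (0.0915%) and 10 with a lower effect at 24 h (0.114%), and 811 at an unadjusted p under 0.05. By brightest probe set 9 genes differed (0.19%), 5 with a higher (0.106%) and 4 with a lower effect (0.0845%). The effect 24 h after 1 dose was below that after 5 doses in Gsta3, a glutathione transferase (rc_AA945082_at, 0.20 at 24 h, difference -2.50, SE 0.34, adjusted p = 9.98e-07, limma). The same held for Alas1 (0.18 at 24 h and 2.02 after 5 days, difference -1.84, adjusted p = 0.00495) and for Ugdh, which makes UDP-glucuronate (-0.12 at 24 h and 0.87 after 5 days, difference -0.99, adjusted p = 0.0146, lost without vehicle rat 1013 or PCN rat 5015 and, at 0.785, with rat 1003 kept). The first of these and Alas1 kept the call without each rat in turn. Cdk1 (1.59 at 24 h and 0.12 after 5 days, difference 1.47, adjusted p = 0.0493) and Pttg1 (2.14 at 24 h and -0.61 after 5 days, difference 2.75, adjusted p = 0.0389) had higher effects at 24 h, but lost their calls in 17 and 14 of 20 such fits, with adjusted p of up to 0.144 and 0.127, and with a pseudocount of 1 (Cdk1, 0.379) or 64 (Pttg1, 0.0682). Cyp3a23-3a1 (difference 0.45, adjusted p = 0.583), Cyp3a18 (-0.06, adjusted p = 1.00) and Slco1a4 (0.00, adjusted p = 1.00) were not called. The count of 18 was 9 without vehicle 5-day rat 1013 or PCN 5-day rat 5015, 11 without PCN 24 h rat 5008, and 1 with only the groups compared.

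Against female rats at the same time 2 probe sets differed (0.0229%), both with a lower effect in males, and 823 at an unadjusted p under 0.05. X62086mRNA_s_at, shared by Cyp3a2 and Cyp3a23-3a1, had an effect of 0.82 in males and 3.76 in females (difference -2.94, SE 0.41, adjusted p = 6.66e-06). The unnamed rc_AI639276_at differed by -3.09 (adjusted p = 0.00618). Cyp3a2 itself stood at 11.61 ± 0.12 in PCN males and 11.63 ± 0.18 in vehicle males, and at 5.73 ± 0.68 in PCN females and 4.32 ± 0.49 in vehicle females (SD, n = 5 each). Its female effect was 1.41 (adjusted p = 0.00502), and the difference between the sexes was -1.43 (adjusted p = 0.291). Cyp3a23-3a1 had effects of 1.48 in males and 2.18 in females (difference -0.70, adjusted p = 0.313), and Cdk1 of 1.59 in males and 0.99 in females (difference 0.60, adjusted p = 0.613). The count was 4 without female vehicle rat 1509, 7 without PCN male 5006 and 13 without PCN female 5508, and 12 with only the groups compared.

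PCN was last set directly against phenobarbital at the same dose, time and sex. Here 104 probe sets differed (1.19%), 48 higher (0.549%) and 56 lower (0.641%) in PCN rats, and 1018 at an unadjusted p under 0.05. By brightest probe set 65 genes differed (1.37%), 31 higher (0.655%) and 34 lower (0.718%) in PCN rats. Cyp2b2 (K01721mRNA_s_at) stood at 10.64 ± 0.51 in PCN rats and 12.70 ± 0.14 in phenobarbital rats (SD, n = 5 each), a difference of -2.06 (SE 0.29, adjusted p = 9.17e-07, limma). D17349cds_f_at, which carries the symbol Cyp2b15, differed by -2.77 (adjusted p = 4.68e-19). The probe sets shared among Cyp2b genes differed by -1.69 to -3.59, and which Cyp2b transcript D17349cds_f_at reads was not tested. Gsta3 (S82820mRNA_s_at) differed by -1.92 (adjusted p = 0.000237), Alas1 by -1.60 (adjusted p = 1.53e-05) and Aldh1a1 by -1.52 (adjusted p = 2.24e-05). The glutamate receptor Grm5 (4.23 ± 0.32 in PCN rats and 6.77 ± 0.58 in phenobarbital rats) and the glycine carrier Slc6a9 (4.53 ± 1.19 in PCN rats and 8.11 ± 1.26 in phenobarbital rats) were also lower in PCN rats, with differences of -2.54 for Grm5 and -3.58 for Slc6a9.

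Cyp3a18 ran the opposite way, at 11.16 ± 0.12 in PCN rats and 9.90 ± 0.20 in phenobarbital rats (difference 1.27, SE 0.29, adjusted p = 0.00646), as did Slco1a4, at 11.61 ± 0.14 in PCN rats and 10.80 ± 0.35 in phenobarbital rats (difference 0.81, adjusted p = 0.0325, lost without any 1 of 6 rats, 4006, 4007, 4009, 5006, 5008 and 5009). For Cyp3a23-3a1, at 12.61 ± 0.15 in PCN rats and 12.39 ± 0.13 in phenobarbital rats, the difference was 0.22 (SE 0.17, adjusted p = 0.708). Tat was at 9.47 ± 0.37 in PCN rats and 9.58 ± 0.43 in phenobarbital rats (difference -0.11, adjusted p = 0.991), and Cdk1 at 5.85 ± 0.73 in PCN rats and 4.96 ± 1.03 in phenobarbital rats (difference 0.89, adjusted p = 0.0545). The count of 104 was 54 without phenobarbital rat 4009, 66 without PCN rat 5008, and in a fit of just the groups set against each other 27.

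The effects of PCN and phenobarbital against vehicle share the 5 vehicle rats and are set side by side with no test. For Cyp3a18 the effect was 1.27 with PCN and 0.01 with phenobarbital, and for Slco1a4 1.81 with PCN and 1.00 with phenobarbital. For the shared Ces2 probe set it was 2.73 with PCN and 3.86 with phenobarbital. For the Ugt1a probe set D38065exon_s_at it was 2.07 with PCN and 0.98 with phenobarbital, and for Stmn1 1.25 with PCN and 0.88 with phenobarbital. Of the 50 probe sets called at 24 h, 5 were also called in the difference from 6 h (10% of the 50 and 18.5% of the 27), 3 in that from 5 days (6% and 16.7% of the 18), none in that from females, and 16 in PCN minus phenobarbital (32% and 15.4% of the 104).

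**Figure D5:**
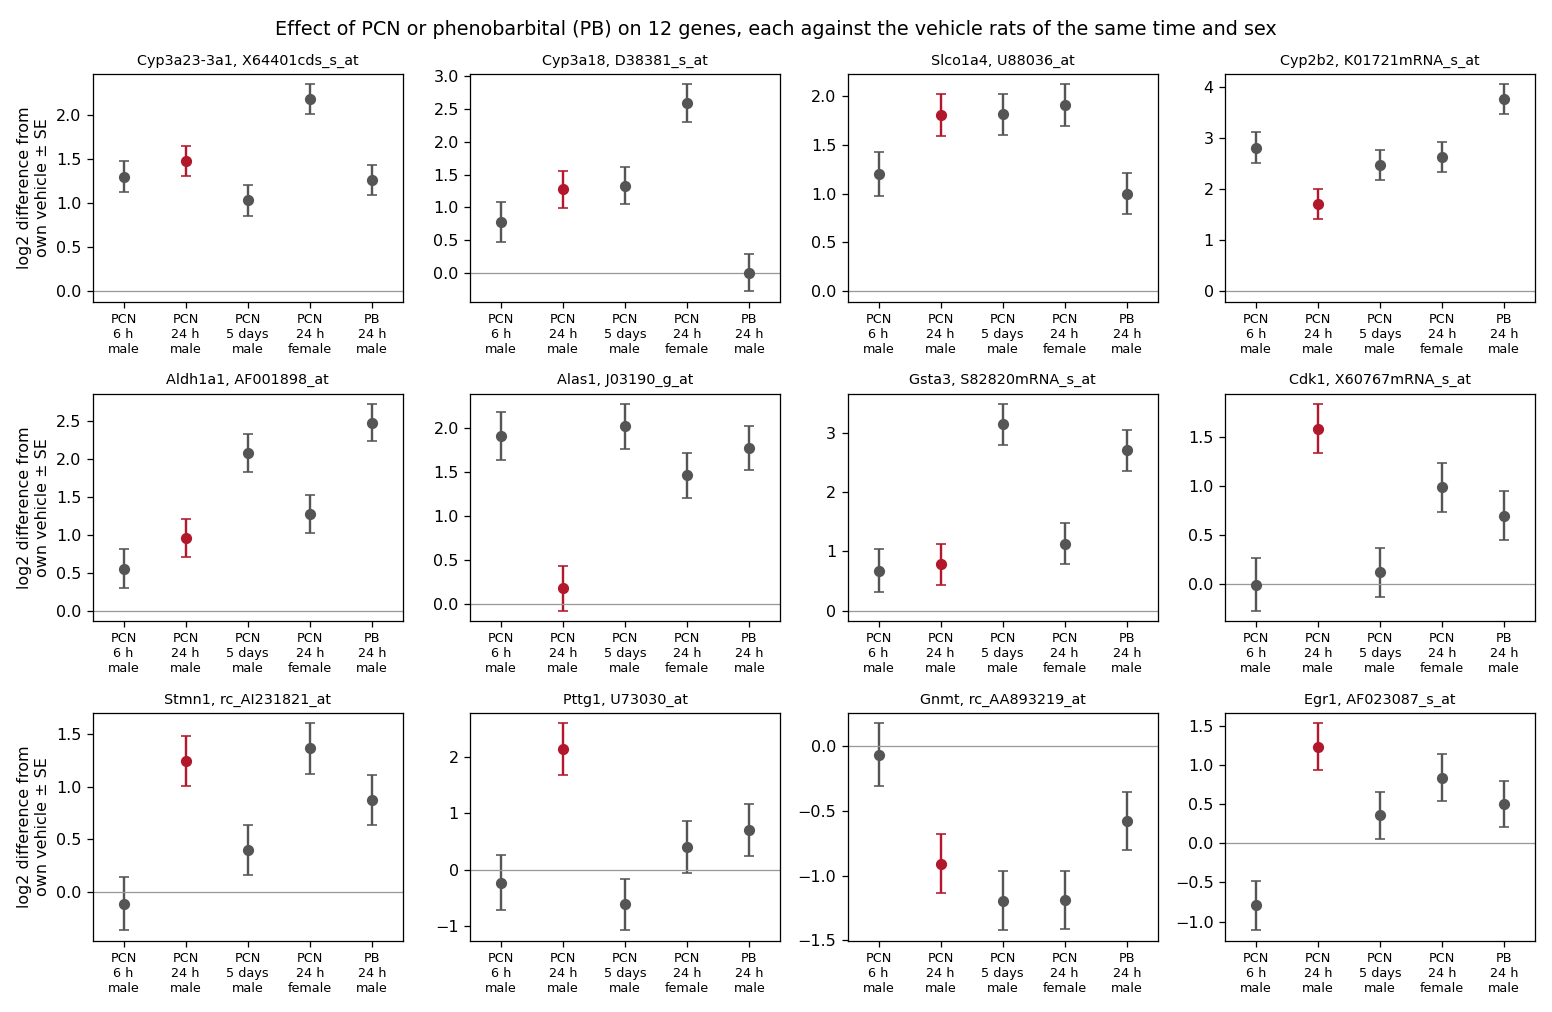
Effect on 12 genes as the log2 difference from the vehicle rats of the same time and sex ± SE (n = 5 rats a group, 4 for vehicle at 6 h); the red point is PCN in males at 24 h, and the others are PCN in males at 6 h and after 5 days, PCN in females at 24 h and phenobarbital (PB) in males at 24 h. Alas1 is near 0 at 24 h in males and near 2 at 6 h and 5 days, and Cdk1 is near 0 at 6 h and 5 days.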

How the data were processed

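The deposited values of the authors give each probe set's intensity, linear and with 21.9 to 24.7% at or below 0 in the 10 arrays; how they were made is not stated by any source used here. In the file 12 columns were not used. Arrays were quantile normalised, negative values set to 0, and log2(intensity + 16) taken. Of 8799 probe sets 59 controls were left out; of the rest 7006 carried 1 symbol, 308 several and 1426 none, for 4736 genes, with 6994 symbols matched through gene ID. Groups came from the labels, which number each rat, and each is a separate animal. Group means of 89 arrays in 18 groups were fitted and tested two-sided with limma 3.58.1 (lmFit, eBayes; R 4.3.3). The array of male vehicle 6 h rat 1003 was left out, since 42.9% of windows of 50 probe sets matched its group better 1 place down. The members and the 28 lists were chosen with earlier results of these data known. Genes were drawn from key inducible genes, all genes with a called probe set and the 2 members of each list with the largest difference. Up to 5 per further comparison were added, and each gene was read from its brightest probe set. Not all of them are described in the text. The key genes Gsta2, Nr1i2 (PXR) and Nr1i3 (CAR) had no probe set of their own. Other genes are named as chosen after their values were seen. Alternatives were pseudocounts of 1 and 64, median scaling, leaving out the lowest 33.3% of probe sets, moderation with trend or robust settings, only the groups compared, rat 1003 kept, a replicate block, averaging the probe sets of a gene and leaving out each array. The fit was tested on simulated data. The number of arrays limits the precision. Figures used Python 3.11.15 with numpy 2.4.6, pandas 2.3.3 and matplotlib 3.10.9.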

Additional observations from a re-analysis of the deposited data

Results flagged for a closer look

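In 12 of 120 groups of 5 rats examined among the genes and probe sets named, 1 rat passed Dixon's test against the other 4, where chance gives about 1 in 20. Among PCN rats, 5009 was lowest for the Ugt1a probe sets D38065exon_s_at (8.76, the others 10.24 to 10.43), S56937_s_at (10.27, the others 11.30 to 11.57) and D83796_s_at (10.345, the others 11.15 to 11.44), and 5007 for Nup58 AF000900_at (4.42, the others 5.40 to 5.66). Vehicle rat 1010 was lowest for Foxm1 (4.27, the others 6.82 to 7.19) and for the Ugt1a probe set J05132_s_at (11.005, the others 11.11 to 11.14), and highest for Pttg1 (4.68, the others 4.00 to 4.03). Vehicle rat 1009 was lowest for Gnmt (10.56, the others 11.03 to 11.16). It was also the only vehicle rat off the floor for Mcm6 U17565_at (4.99), Mcm6 U17565_g_at (4.10) and Loxl1 rc_AA859805_at (4.15); with the other 4 at 4.00 any value above the floor passes, so these say nothing of distance. Vehicle rat 1007 was lowest for Cyp7a1 (4.84, the others 7.13 to 7.58).

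Some effects differed between times or sexes by a test of the difference itself (limma, adjusted over all probe sets). Relative to 6 h, the effect at 24 h was higher for Egr1 (2.23 on M18416_at and 2.02 on AF023087_s_at), Cdk1 (1.60) and Ccnb1 (1.55). It was lower for Alas1 (-1.73 on J03190_g_at and -1.87 on J03190_at), the repair gene Ercc8 (-1.01), Ass1 (-0.83), Txnl1 (-0.80) and the RNA helicase Ddx3x (-0.66). Ercc8 lost its call without rat 1001 (adjusted p = 0.0511) and with rat 1003 kept (0.155), Txnl1 without rat 5008 (0.0543), Ddx3x with median scaling (0.197) and Egr1 M18416_at without rat 1005 (0.118) and with a pseudocount of 1 (0.122). Relative to 5 daily doses it was higher for Pttg1 (2.75), Nup58 (1.68), Cdk1 (1.47) and Vps33a (1.09), and lower for Gsta3 (-2.50 on rc_AA945082_at, -2.61 on S72506_s_at and -2.36 on S82820mRNA_s_at), Alas1 (-1.84 on J03190_g_at and -1.77 on J03190_at) and Ugdh (-0.99). The Vps33a value is that of U35244_at, which at 24 h was above the floor in rat 5007 alone of the 10 rats (5.78) and lost its call without rat 1013 or 1014 (adjusted p up to 0.0710); its brightest probe set, U35244_g_at, differed between PCN and vehicle rats by -0.14. Nup58 lost its call with a pseudocount of 1 (0.146). In males relative to females it was lower for the probe set shared by Cyp3a2 and Cyp3a23-3a1 (-2.94) and for the unnamed rc_AI639276_at (-3.09).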

How the results depend on the processing

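Among the named results 86 were called, and none of these changed sign in any alternative run. Of the 50 called probe sets 24 kept their call without each array in turn and 7 under every alternative. Leaving out 1 array in turn gave 36 to 56 calls for PCN minus vehicle, 5 to 30 for the difference from 6 h, 9 to 21 from 5 days, 2 to 13 from females and 54 to 155 for PCN minus phenobarbital. With only the groups compared in the fit these counts were 8, 0, 1, 12 and 27, and for PCN minus vehicle 12 when the lowest 33.3% of probe sets were left out as well, an alternative chosen after seeing the data, as were the left-out arrays of the 4 other comparisons. The difference from 6 h gave 17 with a pseudocount of 1 and 15 with median scaling, that from 5 days 11 without the lowest 33.3%, and that from females 5 with a pseudocount of 64. With rat 1003 kept PCN minus vehicle gave 37. The rat numbers were not taken to pair the groups, since deviations of rats in the same place correlated at r = -0.05 to 0.20 (best with their own place in 2 of 5). With a replicate block by place the counts were 71, 23, 20, 12 and 139. Sign changes were limited to results not called in the main analysis, and their causes were not tested. With median scaling Cyp3a2 was at 0.0905 and Ugdh at 0.0118. With all probe sets of a gene averaged Mcm6 was at 1.27, Slc1a3 at -0.391, Nup58 at 0.105, Vps33a at 0.0734, Ugdh at 0.0427, Slc4a1 at 0.0309 and Krt19 at -0.0136. Without 1 array Cyp3a2 ran from -0.0613 to 0.0481, Slc1a3 from -0.197 to 0.232, Sult2a1 from -0.100 to 0.173, Mcm6 (rc_AI639082_s_at) from -0.308 to 0.0800 and Slc6a9 from -0.0116 to 0.655. Intensities at or below 0 (21.9 to 24.7% of an array) and the floor at 4.00 limit what dim genes can show.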
